A study of Mus musculus with 17 samples.

Results

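The proteins of mature central myelin were followed at the transcript level through 9 genes, Mbp, Mog, Mag, Mobp, Cnp, Cldn11, Mal, Opalin and Ermn, chosen by symbol among the 55453 distinct symbols of the expression table. All 9 were in the table, and all 9 passed the filter of a mean of at least 1 TPM, which left 16265 genes for testing. TPM, a unit of transcript abundance, is the share of a transcript in the total of its library, corrected for transcript length. RNA came from the dissected cortex of 17 male C57BL/6J mice. The groups were hemizygous Hnrnph2 knockout mice (KO, n = 3, 8 weeks), hemizygous R206W mice (n = 3, 8 weeks) and hemizygous P209L mice (n = 3, 3 weeks). R206W and P209L are substitutions in hnRNPH2, an X-linked RNA-binding protein, that correspond to changes found in patients with a neurodevelopmental disorder. The KO line came from a frameshift obtained while the knockin alleles were being made. Wild-type littermates of the same line and age served as controls (KO controls n = 3, R206W controls n = 3, P209L controls n = 2). Age and line were the same split for P209L, so 3-week mice and mice of the P209L line cannot be told apart.

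Myelin of the brain is the membrane of oligodendrocytes, wound around axons and pressed into compact layers by a small number of very abundant proteins. Precursor cells, in which the transcription factor SOX10 is already present, leave the cell cycle and switch on the factor MYRF. They then make the myelin genes together with the enzymes of myelin lipids. In the mouse cortex this program is at work during the weeks after birth and continues into adult life, so that the age of an animal may bear on the levels given here.

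Bulk tissue was sequenced, and fewer oligodendrocytes and less RNA per oligodendrocyte cannot be told apart. Markers of Schwann cells, which make the myelin of peripheral nerves, were near absent in each mouse, with Pmp2 at no more than 0.04 TPM, Prx at 0.38 and Ncmap at 1.25. Hnrnph2 was between 21.3 and 24.4 TPM in the KO mice and between 80.5 and 145 TPM in their controls. A pair of libraries stood apart. In P209L control 2 the markers of the choroid plexus, the secretory tissue of the ventricles, summed to 1770 TPM, 1740 of it Ttr, against 2.50 to 26.1 TPM in the other 16 mice, and all 5 markers were at their highest. In KO control 1 mitochondrial genes took 20.1% of all TPM, against 10.7% to 15.4% in the other 16 mice. Results that turn on either mouse are given with and without it, here or under the processing alternatives.

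The stretches of genome in front of the genes were examined for short motifs because the 9 genes lay on the same side of their controls in P209L cortex. RefSeq (GRCm38.p6) gave 10 promoter windows for 8 of the members, and Mbp was without an entry. In the 250 bases before each start, both strands were searched for ACAAAG, the core of SOX sites, CTGGNAC, the core of MYRF sites, CAGCTG, a core of OLIG2 sites, and TATAAA, the TATA box. Matches of different motifs may share bases. ACAAAG was in 5 of the 10 windows and in 16.5% of all 32851 windows. CTGGNAC was in 4 of the 10 and in 16.1% of all, CAGCTG in 0 of the 10 and in 13% of all, and TATAAA in 0 of the 10 and in 12.4% of all. Shown are 4 windows, read 5′ to 3′ on the strand of the gene, with matches in capitals. Mobp has the most matches, Mag holds both motifs and Opalin has the smallest adjusted p in P209L cortex. Ermn, the only member lower in the 3-week than in the 8-week controls, though it did not pass, has no match. Mobp lies at chr9:120149492-120149741 (plus strand), Mag at chr7:30914864-30915113 (minus strand), Opalin at chr19:41077114-41077363 (minus strand) and Ermn at chr2:58052865-58053114 (minus strand).
Mobp: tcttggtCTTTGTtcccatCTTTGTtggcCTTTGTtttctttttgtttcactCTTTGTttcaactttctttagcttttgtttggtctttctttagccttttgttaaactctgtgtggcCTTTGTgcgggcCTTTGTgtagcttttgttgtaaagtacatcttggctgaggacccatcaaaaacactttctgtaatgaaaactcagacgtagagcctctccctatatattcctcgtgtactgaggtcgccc
Mag: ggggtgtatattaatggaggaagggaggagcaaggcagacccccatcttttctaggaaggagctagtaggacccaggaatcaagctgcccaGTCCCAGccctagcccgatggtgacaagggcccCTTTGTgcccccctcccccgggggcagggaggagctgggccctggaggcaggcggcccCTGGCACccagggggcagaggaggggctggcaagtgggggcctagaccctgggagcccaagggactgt
Opalin: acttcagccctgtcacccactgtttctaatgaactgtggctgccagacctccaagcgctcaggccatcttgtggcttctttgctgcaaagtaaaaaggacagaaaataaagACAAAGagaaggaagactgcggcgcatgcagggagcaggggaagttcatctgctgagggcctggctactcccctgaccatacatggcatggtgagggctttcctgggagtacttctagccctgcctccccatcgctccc
Ermn: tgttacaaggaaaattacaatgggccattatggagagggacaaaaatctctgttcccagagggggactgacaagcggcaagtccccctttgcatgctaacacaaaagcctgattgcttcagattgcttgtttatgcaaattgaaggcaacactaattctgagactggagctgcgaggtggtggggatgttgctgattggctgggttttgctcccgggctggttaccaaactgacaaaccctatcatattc
The Mobp window holds 6 copies of ACAAAG on the opposite strand, and 0.0213% of all windows hold 4 or more. Mag has 3 windows in RefSeq, 2 of which overlap, and the window shown holds 1 ACAAAG and 2 CTGGNAC. The overlapping 2 windows hold the same matches, so the same sites enter the counts of 5 and 4 windows through both. Mog has 1 CTGGNAC, and Cnp has 1 ACAAAG and 2 CTGGNAC. Mal and Cldn11, like Ermn, hold none of the 4 motifs. A match describes letters only, and which of these sequences is bound was not measured.

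The levels, in TPM and so per length, were first ordered to see how the genes share the transcript pool. Mbp, which joins the inner faces of the myelin membrane, was the most abundant in every mouse and took 55.4% to 67% of the summed TPM of the 9 genes. Mobp, a small basic protein of compact myelin, followed with 12.6% to 22.7%. Cnp and then Mal came next by group mean in all 6 groups. Group means of Mbp lay between 1495 TPM (P209L) and 2473 TPM (P209L controls), and those of Mobp between 376 and 703 TPM. Opalin and Ermn were the lowest, with group means of 11.8 to 26.0 TPM for Opalin and 11.7 to 25.4 TPM for Ermn. The ranks of Mbp, Mobp, Cnp and Mal were therefore the same in each group, while lower ranks changed between groups. Mag was above Mog by group mean in all groups but the P209L mice. The means of Mag and Mog were 109 and 98.2 TPM in the P209L controls and 50.1 and 55.7 TPM in the P209L mice. In the 4 groups of 8 weeks Mag stood above Cldn11 and Ermn above Opalin, and in both groups of 3 weeks these orders were turned. The ranges of Mag and Cldn11 overlapped in all groups but the P209L mice, at 86.1 to 100 TPM and 78.2 to 101 TPM in the R206W controls. Their order by group mean was within the spread in the groups that overlapped. Within a mouse, Mag was above Cldn11 in the 8-week mice except R206W control 1, and below it in each 3-week mouse.

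Ratios of a pair of members within a mouse do not depend on the total to which TPM is scaled, and 2 pairs, picked after their values were seen, are described without a test. The ratio of Mog to Mag was 0.354 to 0.723 in the 12 mice of 8 weeks (median 0.541), 1.05 and 0.81 in the P209L controls, and 1.17, 1.04 and 1.15 in the P209L mice. The ratio of Opalin to Ermn was 0.413 to 0.687 in the mice of 8 weeks (median 0.571), 1.55 and 1.36 in the P209L controls, and 0.985, 1.18 and 1.22 in the P209L mice. The mice of 3 weeks lay above every mouse of 8 weeks in both ratios, in P209L mice as in their controls.

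**Figure D1:**
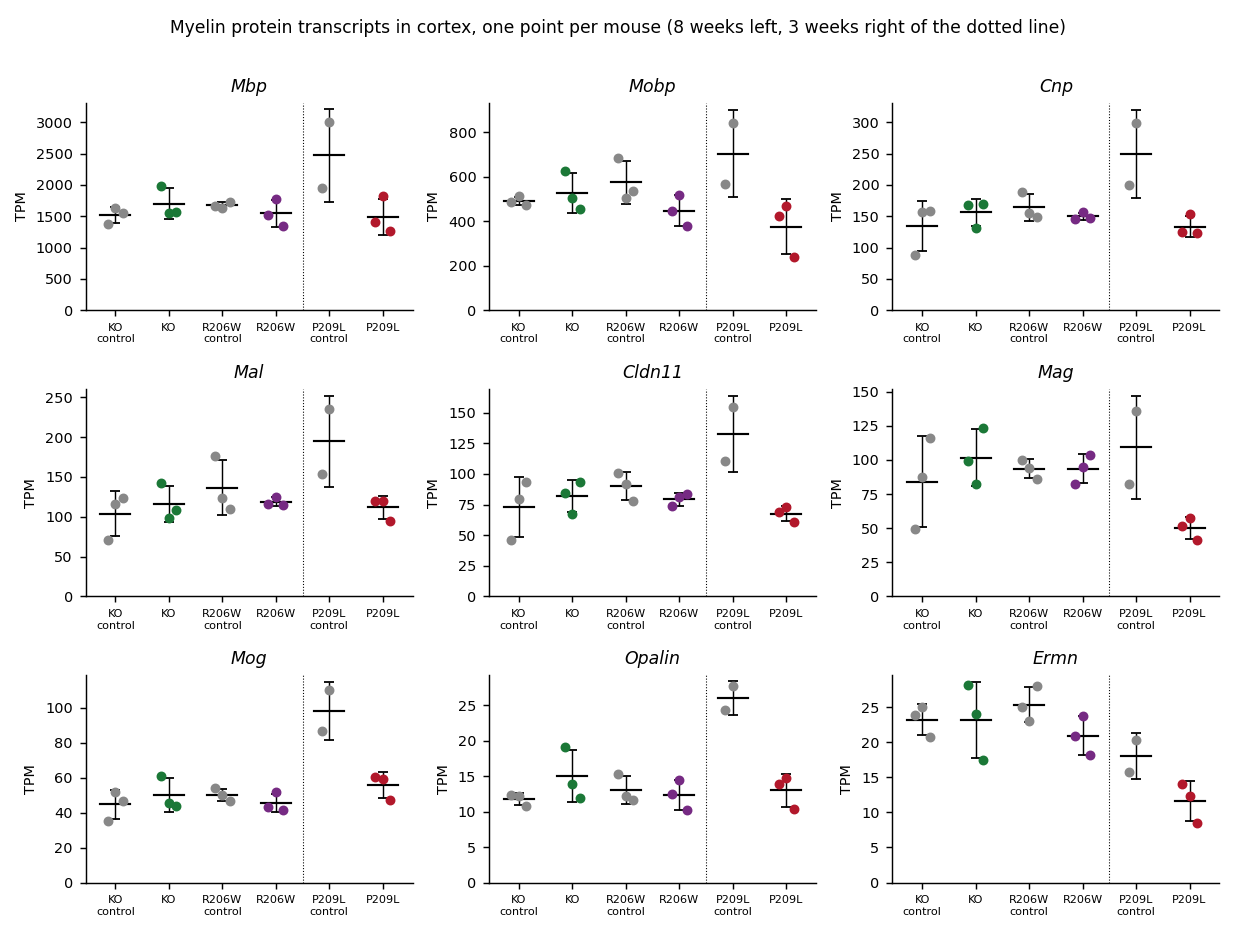
TPM (vertical axes, from 0) of the 9 myelin protein genes in the 6 groups (horizontal axes), with a point for each mouse, a bar at the mean and whiskers of 1 SD. The P209L mice lie below both of their controls in all 9 panels, with Mbp at 1265 to 1818 TPM against 1950 and 2997 TPM, while the KO and R206W mice overlap their controls in each panel.

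In P209L cortex each of the 9 myelin genes was lower than in both wild-type littermates, at 45.9% (Mag) to 64.6% (Ermn) of the control mean. None passed after adjustment over all genes (0 of 9), where 16 of the 16265 genes, or 0.0984%, passed in limma's moderated test. All 9 had an unadjusted p under 0.05 in the lower direction, against 2.9% of all genes, and the P209L mice and their controls did not overlap for 9 of 9, against 10.7% of all genes lower in this way. The median of the 9 log2 differences was -0.87, and the median of all genes was 0.02. Differences are of log2(TPM + 1), which understates the change of genes near 1 TPM.

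Among the proteins of compact myelin, Mbp (ENSMUSG00000041607.17, chromosome 18) was at 1403, 1818 and 1265 TPM in the P209L mice and at 1950 and 2997 TPM in the controls. The highest P209L mouse was close to the lower control, and P209L control 2 was far above all other mice. The log2 difference was -0.71 (SE 0.187, 95% confidence interval -1.11 to -0.31), with an adjusted p = 0.256 in limma. Mobp (ENSMUSG00000032517.16, chromosome 9, 120149707 to 120181484, plus strand, GRCm38) was at 424, 466.04 and 238 TPM in P209L and at 565 and 842 TPM in controls, and P209L 3 was the lowest mouse of the series. The log2 difference of Mobp was -0.93 (SE 0.250), with an adjusted p = 0.266.

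Mal (ENSMUSG00000027375.14, chromosome 2, 127633226 to 127656695, minus strand), a proteolipid that carries membrane components to myelin, was at 120, 120 and 95.1 TPM in P209L against 154 and 235 TPM. Cldn11 (ENSMUSG00000037625.7, chromosome 3, 31149920 to 31164324, plus strand), the claudin that seals the layers of central myelin with tight junctions, was at 68.8, 72.6 and 60.6 TPM against 111 and 155 TPM. The P209L values of Cldn11 lay closer to each other than the highest of them lay to the lower control. The log2 differences were -0.77 (SE 0.250, adjusted p = 0.397) for Mal and -0.95 (SE 0.233, adjusted p = 0.183) for Cldn11 in limma.

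The surface proteins of the sheath followed the same order. Mog (ENSMUSG00000076439.12, chromosome 17, 37010743 to 37023398, minus strand), an immunoglobulin protein on the outermost layer, was at 60.3, 59.5 and 47.2 TPM in P209L and at 86.5 and 110 TPM in controls. Mag (ENSMUSG00000036634.15, chromosome 7, 30899176 to 30914873, minus strand), an adhesion molecule on the innermost layer that faces the axon, was at 51.8, 57.5 and 41.1 TPM against 82.5 and 136 TPM. Opalin (ENSMUSG00000050121.9, chromosome 19, 41061710 to 41077113, minus strand), a transmembrane glycoprotein of central oligodendrocytes, was at 13.9, 14.7 and 10.4 TPM against 24.3 and 27.7 TPM. The controls of Opalin were close to each other, and both were well above the P209L mice. The log2 differences were -0.81 for Mog (SE 0.183, adjusted p = 0.141), -1.08 for Mag (SE 0.286, adjusted p = 0.263) and -0.96 for Opalin (SE 0.193, 95% confidence interval -1.37 to -0.55). Opalin had the smallest adjusted p of the members in limma, at 0.0845.

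Proteins of the cytoplasmic side were lower as well. Cnp (ENSMUSG00000006782.16, chromosome 11, 100574904 to 100591729, plus strand), an enzyme of the uncompacted channels of the sheath, was at 125, 153 and 123 TPM in P209L and at 200 and 299 TPM in controls. Ermn (ENSMUSG00000026830.9, chromosome 2, 58045113 to 58052864, minus strand), an actin-binding protein of mature oligodendrocytes, was at 14.1, 12.4 and 8.48 TPM against 15.7 and 20.3 TPM. As for Mbp, the highest P209L mouse of Ermn was close to the lower control. The log2 differences were -0.87 (SE 0.228, adjusted p = 0.240) for Cnp and -0.61 (SE 0.208, adjusted p = 0.461) for Ermn.

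P209L control 2, the mouse with the choroid plexus transcripts, was the highest of all 17 mice for 8 of the 9 members, the exception being Ermn. The other P209L control, with a choroid plexus sum of 9.54 TPM, was above all 3 P209L mice for 9 of 9 members. Without P209L control 2 the 9 differences kept their sign, with a median of -0.63, and 4 of 9 (Mog, Cldn11, Cnp and Opalin) had an unadjusted p under 0.05 in the lower direction, against 1.16% of all genes. Opalin was then at -0.87 (SE 0.251, adjusted p = 0.906), Mog at -0.63, Cldn11 at -0.72 and Cnp at -0.58. This fit leaves a lone control, which is assumed to vary like the other groups. Without P209L control 1 the median was -1.07. After median-of-ratios scaling Cnp and Cldn11 passed, with adjusted p = 0.0466 and 0.0291, and 66 genes passed in all. With sample weights 5 members passed, among 378 genes. Over the 17 alternatives each of the 9 members stayed below 0.

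**Figure D2:**
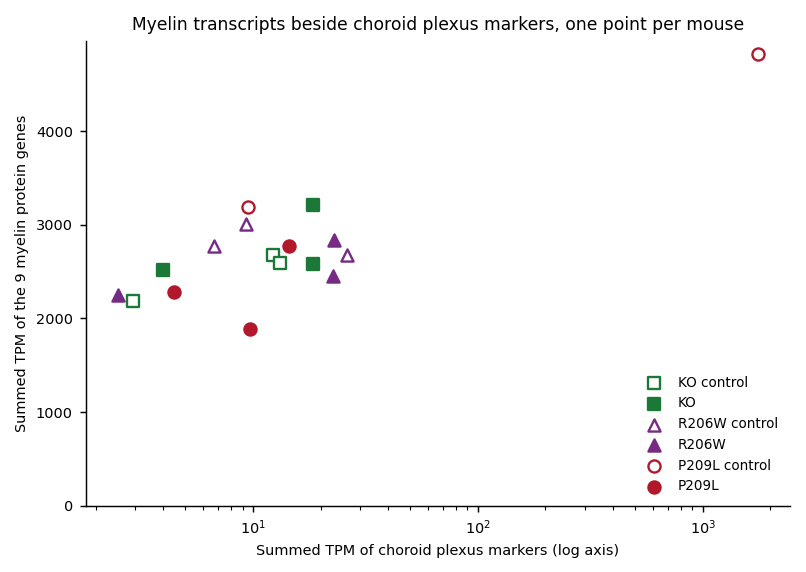
Summed TPM of the 9 myelin protein genes (vertical axis, from 0) against the summed TPM of 5 choroid plexus markers (horizontal log axis), with a point for each mouse, controls open and mutants filled. P209L control 2, at 1770 TPM of choroid plexus markers and 4821 TPM of myelin genes, stands alone at the upper right, and the other 16 mice lie between 1888 and 3216 TPM of myelin genes.

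The rest of the oligodendrocyte program was read from 5 further lists with 49 tested genes. In P209L cortex 47 of the 49 genes were lower (46.2% of all genes) and 24 had an unadjusted p under 0.05, all in the lower direction (2.9% of all genes), while 0 of 49 passed after adjustment. The 13 other genes of the myelin membrane and its contacts with the axon had a median log2 difference of -0.51, with 13 of 13 lower. Gjb1, a gap junction gene, was at -0.78 and Tspan2, a tetraspanin, at -0.69.

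The 13 genes of the cytoskeleton and cytoplasm had a median of -0.43, with 12 lower, led by Trf, the iron carrier transferrin, at -0.95. The most abundant of them, Tppp, a tubulin-binding protein, was at 185, 175 and 176 TPM against 205 and 190 TPM. The 5 enzymes of myelin lipids were all lower, with a median of -0.42, from -0.68 for Fa2h, which makes hydroxylated fatty acids, to -0.31. Cers2, a ceramide synthase, was at -0.42. These lists were lower by less than the 9 myelin protein genes, whose median was -0.87, but the difference between lists was not tested.

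The 8 transcription factors had a median of -0.37, with 7 lower and 3 at an unadjusted p under 0.05. Myrf was at 4.53, 4.55 and 4.83 TPM in P209L against 5.72 and 9.5 TPM, a log2 difference of -0.58 (adjusted p = 0.603), and Olig1 at 32.1, 36.8 and 33.5 TPM against 44.2 and 60.1 TPM. Nkx6-2 was at -0.84. The 10 genes of precursors and newly formed oligodendrocytes were lower in 10 of 10 with a median of -0.32. Only 1 of these had an unadjusted p under 0.05, Bcas1 at -0.71, a gene of cells that have begun to make myelin. Pdgfra, the receptor that marks precursors, was at 8.87, 13.6 and 11.9 TPM against 11.9 and 15.1 TPM, and the groups overlapped. Without P209L control 2, 43 of the 49 genes were lower, and 5 had an unadjusted p under 0.05 in the lower direction and 1 in the higher.

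Markers of other cells moved to different degrees in the same comparison. The medians were -0.12 for 8 neuronal, -0.06 for 7 astrocytic and -0.06 for 7 microglial markers, with 5, 4 and 5 lower. The 6 endothelial markers were lower in 6 of 6, at a median of -0.26. The 8 leptomeningeal markers were lower in 8 of 8 (median -0.46), with summed levels of 48.2 to 72.9 TPM in P209L and of 85.1 and 96.9 TPM in controls. The 5 red blood cell markers were lower in 5 of 5 (median -0.68), at 1905 to 2837 TPM against 2572 and 4884 TPM. The 3 tested ependymal markers were higher in 3 of 3 (median 0.20, where 53.5% of all genes were higher). The summed level of the 4 ependymal markers was 53.97 TPM in P209L 2. In P209L 1 and 3 it was 18.35 and 15.61 TPM, below the 19.57 and 20.82 TPM of the controls. Of the 6 striatal markers 3 were lower (median 0.01). None of these genes passed after adjustment (0 genes). At an unadjusted p under 0.05 there were 0 neuronal, 0 endothelial and 0 ependymal genes. Lower at that level were 1 of 7 astrocytic, 1 of 7 microglial and 1 of 6 striatal genes, against 2.9% of all genes. So were 2 of 8 leptomeningeal and 2 of 5 red blood cell genes. Of the 6 striatal genes 1 was higher (4.56% of all genes). The 2 choroid plexus markers that passed the filter had a median of -2.69, and of 0.13 without P209L control 2. The part that dissection, blood or meninges have in the myelin result was not tested. Without P209L control 2 the leptomeningeal median was -0.39 and the red blood cell median -0.12.

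**Figure D3:**
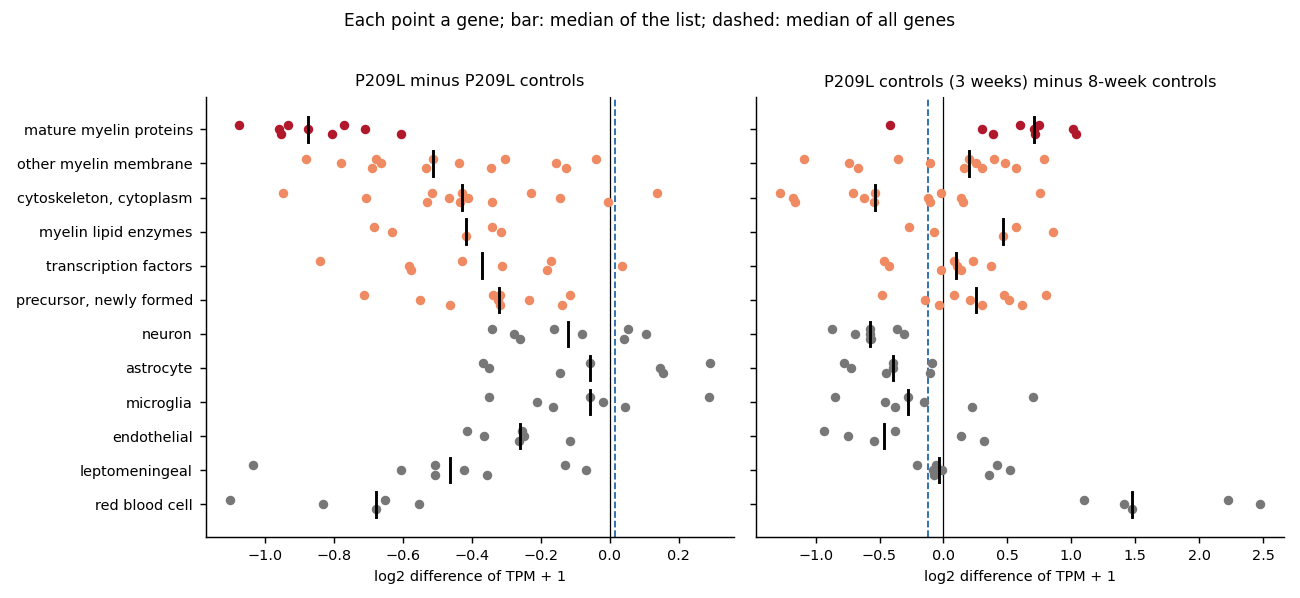
Log2 differences of TPM + 1 (horizontal axes) of single genes (points) in 6 oligodendrocyte lists and 6 lists of other cells, for P209L against its controls (left) and P209L controls against 8-week controls (right), with a bar at the median of each list and a dashed line at the median of all genes. On the left the 9 myelin protein genes (median -0.87) have the lowest median of the lists shown, and on the right the red blood cell markers have the highest, 1.48. The 2 tested choroid plexus markers, which are not shown, had medians of -2.69 (left) and 2.69 (right).

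In KO cortex no myelin gene passed the test against wild-type littermates. Mean levels were 99.9% (Ermn) to 127% (Opalin) of control, 8 of 9 were higher (67.3% of all genes), and the median log2 difference was 0.18, against 0.06 for all genes. None of the 9 passed after adjustment (0.00615% of all genes did) or at an unadjusted p under 0.05 (4.08% of all genes did), and the groups overlapped for 9 of 9, while 6.25% of all genes did not overlap. Opalin was at 19.1, 13.95 and 11.96 TPM in KO and at 12.4, 12.2 and 10.8 TPM in controls, a log2 difference of 0.30 with a 95% confidence interval of -0.07 to 0.67. Mag was at 98.8, 82.1 and 123 TPM against 49.1, 87.3 and 116 TPM, a difference of 0.33 (-0.21 to 0.88). KO 1 had the highest Opalin level of the 12 mice of 8 weeks, and KO control 1 had the lowest Mag level. KO control 1, with the high mitochondrial share, was the lowest of the 8-week mice for 5 of the 9 members. Without it the median was 0.00029, with Mag, Cnp, Cldn11 and Mal below 0, and the median of all genes was -0.06. Of the 49 other oligodendrocyte genes 43 were higher (67.3% of all genes). Of these, 5 had an unadjusted p under 0.05 (3.46% of all genes), and 0 passed after adjustment. Without KO control 1 the split was 23 higher and 26 lower, in a fit where the median of all genes was below 0. The intervals of the members reach from -0.42 (Ermn) to 0.88 (Mag), and changes within them were not detectable with 3 mice a group.

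In R206W cortex 9 of 9 members were lower than in controls by small amounts (46.8% of all genes were lower), with a median log2 difference of -0.14 against 0.01 for all genes. Again 0 of 9 passed after adjustment (0.0369% of all genes did) or at an unadjusted p under 0.05 (2.19% did), and the groups overlapped for 9 of 9, while 16.2% of all genes did not overlap. The largest difference was that of Mobp, at 447, 517 and 377 TPM in R206W against 683, 503 and 535 TPM, or -0.36 (95% confidence interval -0.83 to 0.12). Ermn followed at 21.0, 23.8 and 18.1 TPM against 25.1, 23.0 and 28.02 TPM, or -0.27. Mag was at 100.2% of control, with a log2 difference of -0.00017. R206W control 1 had the highest value of its group for Mobp, Cnp, Mal, Mag, Cldn11, Mog and Opalin, and without it Mag, Mal and Opalin were above 0, at 0.05, 0.02 and 0.04. Of the 49 other oligodendrocyte genes 33 were lower (46.8% of all genes), 1 of them at an unadjusted p under 0.05 and 0 after adjustment.

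The control groups of both 8-week lines were set side by side to see how far wild-type mice of the same age differ. The R206W controls were above the KO controls for 9 of 9 members, with a median of 0.21, but all genes had a median of 0.13 in the same direction and 83.9% of them were higher. None of the 9 passed (0% of all genes did, and 3.12% had an unadjusted p under 0.05, against 0 members). After median-of-ratios scaling the members had a median of 0.06, and Mbp, Opalin and Ermn were just below 0. Without KO control 1 the median was 0.07 (-0.0014 for all genes), with Mag at -0.11 and the other 8 members above 0.

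**Figure D4:**
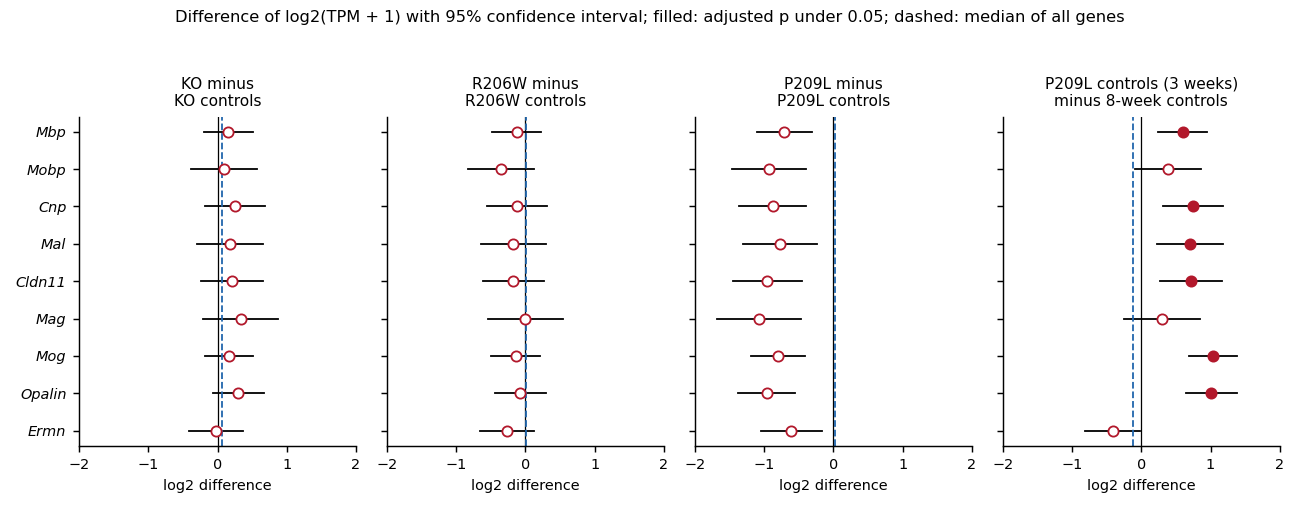
Log2 differences of TPM + 1 (horizontal axes, same scale) of the 9 myelin protein genes in 4 comparisons, with bars for the 95% confidence interval, filled points at an adjusted p under 0.05 and a dashed line at the median of all genes. The intervals of P209L lie below 0 for 9 of 9 genes with no filled point, those of KO and R206W span 0, and on the right 6 genes are filled on the higher side while Ermn lies at -0.41.

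Whether the P209L difference was larger than that of the other lines was tested as a difference of effects, in which age differs as well. Against R206W the P209L effect was lower for 9 of 9 members (49.3% of all genes), with a median of -0.66, against 0.003 for all genes. At an unadjusted p under 0.05, 6 of 9 were lower (1.56% of all genes), and 0 passed after adjustment (0% of all genes). Against KO the median was -1.02, and that of all genes was -0.05. Lower at an unadjusted p under 0.05 were 8 of 9 (4.69% of all genes), and 0 of 9 passed after adjustment (0.0492% of all genes). Mag was at -1.41 (95% confidence interval -2.22 to -0.59) and Opalin at -1.26 (-1.81 to -0.71, adjusted p = 0.125). Without P209L control 2 and KO control 1 the median was -0.63, Mag was at -0.71 and Opalin at -1.21. Without P209L control 2, 1 of 9 members differed from R206W at an unadjusted p under 0.05. The KO and R206W effects, at the same age, differed by a median of 0.36 with 9 of 9 higher in KO. Of all genes 63% were higher, with a median of 0.05. Without KO control 1 the median was 0.15 with 8 of 9 higher, and that of all genes was -0.07. In both fits 0 of 9 passed either threshold. With all mice, 0.0307% of all genes did after adjustment and 2.29% before.

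Myelin transcripts were then compared between the wild-type cortex of 3 and 8 weeks, that is the P209L controls against both groups of 8-week controls (n = 6). In this comparison 6 of 9 members passed and were higher at 3 weeks, against 11.3% of all genes, and 0 of 9 passed as lower, against 24.8% of all genes. Mog was at 86.5 and 110 TPM at 3 weeks and at 35.5 to 53.8 TPM at 8 weeks (mean 47.5 ± 6.53, SD, n = 6), a log2 difference of 1.03 (SE 0.164, limma adjusted p = 0.000310). Opalin was at 24.3 and 27.7 TPM against 10.8 to 15.3 TPM (mean 12.4 ± 1.54, SD, n = 6), a difference of 1.01 (SE 0.173, adjusted p = 0.000527). The 3-week mean was 207% of the 8-week mean for Mog and 209.2% for Opalin. Cnp was higher by 0.74, Cldn11 by 0.72, Mal by 0.71 and Mbp by 0.60 on the log2 scale, with adjusted p between 0.0107 and 0.0223. All genes had a median of -0.12, and with median-of-ratios scaling, which moved it to 2.05e-05, the same 6 members passed. With quantile normalization 5 passed, since Mbp was then at 0.36 (adjusted p = 0.125). Median-of-ratios scaling changed the calls over all genes from 1837 higher and 4039 lower to 3503 higher and 3677 lower. With quantile normalization they were 3662 higher and 3570 lower.

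Mag and Mobp did not pass between the 3-week and 8-week controls. Mag was at 82.5 and 136 TPM at 3 weeks, and only the second value was outside the 49.1 to 116 TPM of the 8-week controls. The log2 difference was 0.30 (SE 0.256) for Mag and 0.38 (SE 0.224) for Mobp. Of the 9 members only Ermn was lower at 3 weeks, at 15.7 and 20.3 TPM against 20.8 to 28.02 TPM, a difference of -0.41 (SE 0.186, adjusted p = 0.0937). The groups did not overlap in 5 members that were higher (16.7% of all genes) and in Ermn, which was lower (21.5% of all genes). Without P209L control 2, Mog (0.86, adjusted p = 0.0158) and Opalin (0.92, adjusted p = 0.0176) still passed as higher, against 4.99% of all genes, and the other 4 did not. Mag was then at -0.06 and Ermn at -0.59.

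**Figure D5:**
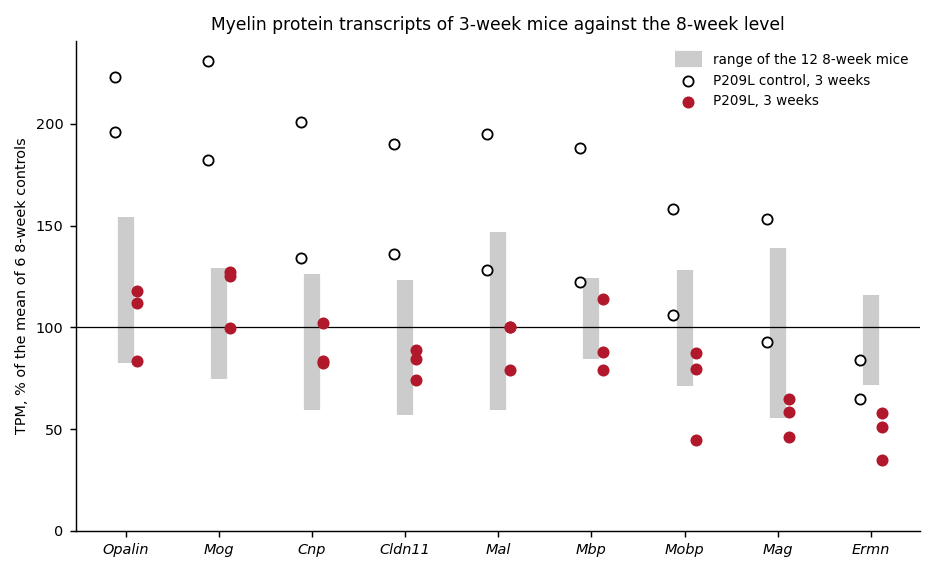
TPM as a percentage of the mean of the 6 8-week controls (vertical axis, from 0) for each myelin protein gene (horizontal axis), with open points for P209L controls, filled points for P209L mice and grey bars for the range of the 12 mice of 8 weeks. Opalin and Mog of the controls reach 182% to 231%, and the filled points lie within the grey bars for Opalin, Mog, Cnp, Cldn11 and Mal and below the bar for all 3 mice in Ermn.

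Set against the mice of 8 weeks, the P209L mice of 3 weeks had levels inside the range of the 12 older mice for Cnp, Cldn11, Mal, Mog and Opalin in 3 of 3 mice. For Mbp, Mag and Mobp 1 of 3 was below that range, and for Ermn 3 of 3. Their mean was 48% of the 8-week control mean for Ermn, 56.5% for Mag, 70.6% for Mobp and 117% for Mog. Mutation, age and line differ together between these sets, and no test was made.

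Of the 49 other oligodendrocyte genes tested, 10 passed as higher (11.3% of all genes) and 12 as lower (24.8% of all genes) in the 3-week controls, and the share that was lower was near that of all genes. Among the higher were Pllp and Tspan2 of the membrane, Gal3st1 (0.86), Ugt8a and Cers2 of lipid synthesis, Sirt2, a deacetylase found in myelin, and Enpp6 (0.80), Cspg4 and Neu4 of newly formed cells or precursors. Lower were the membrane and junction genes Hapln2 (-1.09), Gpr37, Cntn2 and Gjc3, the genes Klk6 (-1.28), Ndrg1 (-1.18), Anln (-1.16), Plekhb1, Tppp, Cryab and Car2 of the second list, and Bcas1 (-0.48). Klk6, a protease of oligodendrocytes, was at 0.23 and 0.34 TPM at 3 weeks against 1.2 to 3.01 TPM. None of the 8 transcription factors passed (0 of 8, and 1 at an unadjusted p under 0.05, lower). With median-of-ratios scaling 17 of the 49 passed as higher and 10 as lower, where 3503 and 3677 of all 16265 genes did. Most of the calls as higher did not hold without P209L control 2, a fit with a lone control. In that fit 20 of the 49 genes were higher and 29 lower.

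The members were compared with each other over the 17 mice as a description, since mice of a group share line, age and genotype. Pearson's r of log2(TPM + 1) over the 36 pairs had a median of 0.689, from -0.13 to 0.974, and after the group means were removed a median of 0.658, from -0.03 to 0.972. Ermn had the lowest mean r with the other members, 0.415, and Mog the highest, 0.722. The mean of the 9 scaled values was highest in P209L control 2 and lowest in P209L 3. It was also low in KO control 1, the mouse with the high mitochondrial share. Among 11929 genes with a mean of at least 5 TPM, the 10 most like this mean over the 17 mice included Tspan2 (r = 0.943), Sox2ot (0.827), Cers2 (0.819), Tmem125 (0.809), Pllp (0.802), Cmtm5 (0.8), Phldb1 (0.798), Tspan15 (0.768) and Tmem123 (0.761). With group means removed they included Cmtm5 (0.919), Atm (0.91), Sox2ot (0.902), Tspan2 (0.882), Tmcc3 (0.872), Vkorc1 (0.857), Gjc3 (0.843), Ifi27 (0.842) and Prr18 (0.838). The lists of 10 shared 4 genes, among them Tspan2, Cmtm5 and Sox2ot. These r values take in the total to which TPM is scaled and the mice that stood apart, and so describe these libraries only.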

How the data were processed

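Cortex was dissected, flash frozen, transferred to RNAlater-ICE and extracted with an RNeasy kit, and stranded total RNA libraries (TruSeq) were sequenced. The authors deposited TPM values by gene symbol for each mouse. The submitters' processing notes name Trim Galore, STAR 2.7.1a, GATK 4.0.4.0, RSEM and mm10, without roles, and the annotation is not given in the sources used here. TPM keeps no read count, so the depth of each library is unknown, and no counting interval is given. Litters are not given, and p-values measure the spread between these samples.

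The table had 55573 entries, and repeats of a symbol were summed (55453 symbols). Genes with a mean of at least 1 TPM over the 17 mice (16265) were analysed as log2(TPM + 1) with limma 3.58.1 in R 4.3.3, as means of the 6 groups, trend=TRUE, a two-sided moderated test and Benjamini-Hochberg adjustment over all genes of a contrast (threshold 0.05). The fit was tested on simulated data. Intervals have a confidence level of 95%. Coordinates came from GENCODE M21 (GRCm38) by symbol, and promoters from RefSeq. Genes likest to the members were the 10 with the highest r among those with a mean of at least 5 TPM. Of the other lists, the genes past the threshold and the most abundant are named, with Myrf, and any further gene was picked once its values were known. Some genes of these lists are not reported here. The members and lists were chosen with earlier results of these data known. Alternatives changed the pseudocount, filter, scaling, groups fitted, variance model or weights, used the replicate number as a block, or left out mice. Leaving out P209L control 2 and KO control 1 together was added after the data were seen.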

Additional observations from a re-analysis of the deposited data

Results flagged for a closer look

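Among the 9 members, the 6 controls of 8 weeks held a value that stood apart for 2, in both cases in R206W control 1. Mobp was at 683.19 TPM there, with the next control at 535.13 TPM, and the gap was 0.71 of the range of the group. Opalin was at 15.34 TPM, with the next at 12.39 TPM, and a gap of 0.654 of the range. The limit for 6 values is 0.625 (Dixon's ratio), which about 1 in 20 groups pass by chance, and the 6 mice are from 2 lines.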

How the results depend on the processing

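P209L members stayed below 0 under 17 alternatives, as did the differences from the R206W and KO effects under 23 each. Members past the adjusted threshold in P209L numbered 2 with median-of-ratios size factors, 1 (Cldn11) with quantile normalization and 5 with array weights, which also gave 2 for P209L against KO. Of all 16265 genes 66, 58 and 378 passed in these fits, and 104 for P209L against KO with array weights. With a mouse left out, the P209L median ran from -1.07 to -0.63 and the unadjusted calls from 4 to 9. Without both P209L control 2 and KO control 1 they were -0.63 and 5. Against R206W these ranges were -0.90 to -0.46 and 1 to 8. Against KO the median ran from -1.31 to -0.80, and was -0.63 with 5 unadjusted calls without both libraries. For age the median ran from 0.41 to 0.96, the adjusted calls from 2 to 6, the unadjusted from 3 to 7 and Mag from -0.058 to 0.65, with the lowest values without P209L control 2. Fitted on its own groups the age comparison had 3 adjusted calls, all higher, where 1376 of all 16265 genes passed as higher. Without both libraries, which leaves a lone P209L control, the median was 0.28 and Mag was at -0.23.

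In KO the unadjusted calls were 1 with the replicate block, 2 with array weights and 0 to 1 with a mouse left out. With array weights Mag was at -0.16, Cldn11 at -0.090 and Ermn at 0.40. With a mouse left out Mag ran from -0.0074 to 0.60, Cnp from -0.023 to 0.39, Cldn11 from -0.087 to 0.41 and Mal from -0.065 to 0.33, each lowest without KO control 1, Mobp from -0.041 (without KO 1) to 0.19 and Ermn from -0.17 (without KO 1) to 0.16 (without KO 3). Without both libraries these were Mag -0.0074, Cnp -0.023, Cldn11 -0.087, Mal -0.065 and Ermn 0.00029. In R206W the replicate block and array weights gave 1 unadjusted call each, and Opalin was at 0.022 with the weights. With a mouse left out Mag ran from -0.076 to 0.089, Mal from -0.31 to 0.024 and Opalin from -0.19 to 0.047. Between the 8-week controls, leaving out a mouse gave 0 to 3 unadjusted calls and Mag from -0.11 (without KO control 1, also without both libraries) to 0.50. With median-of-ratios size factors Mbp was at -0.0050, Opalin at -0.013 and Ermn at -0.022, with quantile normalization Opalin was at -0.019 and Ermn at -0.022, and with array weights Mag was at -0.24. For the KO against the R206W effect array weights gave 3 unadjusted calls and Mag at -0.085, and Mag ran from -0.0073 (without KO control 1, also without both libraries) to 0.60 with a mouse left out. The cause of these changes was not tested.

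With group means removed, r was -0.11 to 0.33 for same-numbered mice and -0.30 to 0.27 for other mutant and control pairs of a line. In groups of 2 or 3 mice such values are tied to each other, so they cannot settle whether the number pairs mice. The replicate block, which could not be fitted between controls of different lines, changed no other call. Limits are the 2 P209L controls, the unknown depth and the single table of TPM.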
